A study of Homo sapiens with 6 samples.

Results

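The aldehyde dehydrogenases described here were 10 genes, ALDH1A1, ALDH1A3, ALDH1B1, ALDH2, ALDH3A1, ALDH3A2, ALDH3B1, ALDH7A1, ALDH9A1 and ALDH18A1, out of 30493 genes listed in a deposited table of read counts. They were chosen by gene symbol, as listed rows of this enzyme family, and all 10 had enough counts to be tested. The cells were A549, a line grown out of a human lung adenocarcinoma. The 3 libraries called si_STAU1 carried a STAU1 knockdown by their label, and the 3 libraries called NC were labelled as plasmid controls. Poly(A) RNA was captured and sequenced from directional libraries, and no other treatment or time point was given. The comparison addressed which aldehyde dehydrogenase transcripts differed in amount between STAU1 knockdown and control cells. Separate cultures are not named in the labels, so p-values here rest on the variation among 3 libraries a group, some or all of which may be technical.

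Aldehyde dehydrogenases oxidise aldehydes to carboxylic acids with NAD or NADP as the cofactor. Their substrates include retinaldehyde, from which retinoic acid is made, acetaldehyde from ethanol, fatty aldehydes from membrane lipids, products of lipid peroxidation, and semialdehydes of amino acid metabolism. Lung adenocarcinoma cells are known for high aldehyde dehydrogenase activity, which is used to sort tumour cells with stem-like behaviour, and A549 is a standard example of a line with high ALDH1A1 and ALDH3A1. STAU1 encodes Staufen, which binds double-stranded stretches of RNA and is known for roles in the transport, translation and decay of mRNAs.

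STAU1 itself had 16.02, 15.7 and 14.6 CPM (counts scaled to library size, here with TMM factors) in si_STAU1 libraries 1 to 3, against 120.5, 125 and 117 CPM in NC libraries 1 to 3, which was 7.83-fold lower (log2 fold change -2.97, SE 0.04). Libraries held between 30354219 and 35431441 counts. Of 17089 genes tested, 22.2% were called higher and 21.9% lower in si_STAU1 libraries at an adjusted p under 0.05, so 44.1% were called in all. The spread between libraries of a group was small, with a fitted coefficient of variation of 2.61%, and the median size of the log2 fold change was 0.18 over all tested genes. Keratins KRT8, KRT18 and KRT7 were high in every library and were called lower in si_STAU1 libraries (log2 fold changes -0.39, -0.45 and -0.60). The epithelial adhesion gene EPCAM was at 45.3 to 45.8 CPM in si_STAU1 libraries and 37.7 to 39.9 CPM in NC libraries. EPCAM and the cadherin gene CDH1 were called higher (0.22 and 0.50). The lung surfactant genes SFTPA1 and SFTPB had 0 counts in every si_STAU1 library, against 141 to 212 and 50 to 103 counts in NC libraries. SFTPC had 3 to 8 counts in si_STAU1 libraries and 4 or 5 in NC libraries, and the lung lineage factor NKX2-1 had 2 or 3 counts in si_STAU1 libraries and 6 to 9 in NC libraries. In CPM by the library total alone, without TMM factors, the sum of 15 lung epithelial markers was 7790 to 7982 in si_STAU1 libraries and 10032 to 10099 in NC libraries, and of 13 tested 2 were called higher and 7 lower. On the same scale the summed markers of other cell types were at 10.3 to 11.2 in si_STAU1 libraries and 6.35 to 6.48 in NC libraries for 4 listed of fibroblasts, 1.81 to 2.70 and 1.07 to 1.30 for 5 of endothelium, 16.2 to 18.5 and 12.5 to 13.9 for 3 listed of immune cells, and 26.5 to 32.6 and 15.3 to 17.0 for 5 of hepatocytes. These sums rested mostly on single genes. In si_STAU1 library 1, LUM had 325 of 341 fibroblast counts and CDH5 had 56 of 82 endothelial counts. CD14 had 480 of 502 immune counts there, and SERPINA1 had 812 of 867 hepatocyte counts. The lung epithelial sum of 242274 counts in that library held 104703 of KRT8, 95113 of KRT18 and 32350 of KRT7. The leukocyte markers PTPRC, CD3E and MS4A1 and the collagen gene COL1A2 were at 0 in all 6 libraries. Whether the change in these markers has a part in the results below was not tested.

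Of the 10 aldehyde dehydrogenases, 5 were called higher in si_STAU1 libraries (ALDH1A1, ALDH2, ALDH3B1, ALDH7A1 and ALDH18A1), 3 lower (ALDH1A3, ALDH3A1 and ALDH3A2) and 2 were not called (ALDH1B1 and ALDH9A1). The test was the quasi-likelihood test of edgeR, with p-values adjusted by Benjamini-Hochberg over all 17089 genes. The shares called in either direction over all genes were 22.2% and 21.9%, and with 10 members these counts are a description. The changes were small: the median log2 fold change of the members was 0.02 and the median of its size was 0.11, against medians of -0.00019 and 0.18 over all tested genes. The CPM of the groups did not overlap for 6 of the 10 members, against 51.4% of all tested genes. On both FPKM scales 6 members were called higher and 1 lower. The called members did not all move one way, and the direction of change differed between close relatives. In bulk RNA, fewer cells making a transcript and less transcript per cell cannot be told apart.

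**Figure D1:**
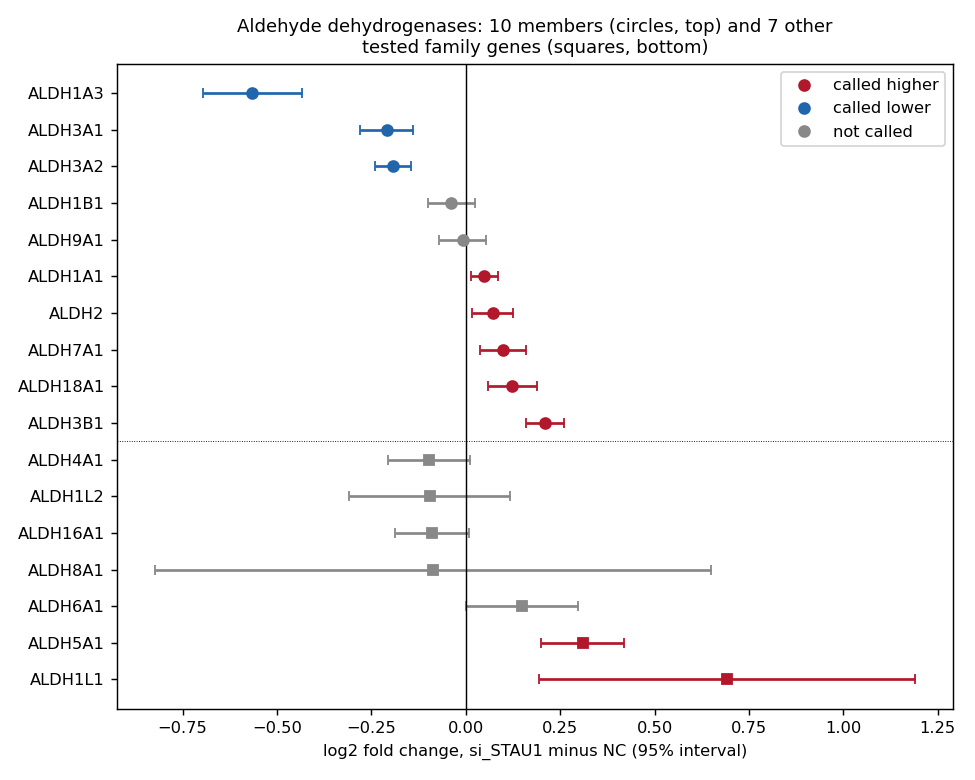
The log2 fold change of each gene (si_STAU1 minus NC, 3 libraries each) is plotted on the horizontal axis as a point with its 95% interval, for the 10 members (circles, above the dotted line) and 7 other tested genes of the family (squares, below it). Colours mark the call at an adjusted p under 0.05; ALDH1A3 lies furthest to the left among the members at -0.57, and ALDH1L1, with few counts, has a wide interval. With total-count scaling or on the FPKM scales each of the 10 members lies further right, and ALDH1B1 and ALDH9A1 then lie above 0.

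The levels of the 10 genes spread widely. In deposited FPKM, which divide by gene length and library depth, ALDH1A1 had 2783, 2913 and 2941 in si_STAU1 libraries and 2591, 2609 and 2533 in NC libraries. It ranked 16 of 30128 genes by mean FPKM over all 6 libraries. ALDH3A1 came next with 206, 214 and 227 FPKM in si_STAU1 libraries and 222, 241 and 230.2 FPKM in NC libraries, at rank 128. Both stood far above the other members in every library. At the other end ALDH1A3 had 1.96, 2.20 and 2.12 FPKM in si_STAU1 libraries and 2.70, 2.86 and 3.05 FPKM in NC libraries. The other 7 members lay between, at means of 4.69 to 29.4 FPKM in si_STAU1 libraries and 4.06 to 23.5 FPKM in NC libraries.

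ALDH1A1 alone made up 88.5% to 89.0% of the summed FPKM of the 19 listed family genes in si_STAU1 libraries, against 87.4% to 87.9% in NC libraries. ALDH3A1 made up 6.54% to 6.84% in si_STAU1 libraries and 7.53% to 8.08% in NC libraries. The share of ALDH1A1 was higher, and that of ALDH3A1 lower, in every si_STAU1 library than in every NC library. The family sum was 3134, 3274 and 3323 FPKM in si_STAU1 libraries, against 2948, 2986 and 2898 FPKM in NC libraries. Without ALDH1A1 the sum was 351, 361 and 382 FPKM in si_STAU1 libraries, against 357, 377 and 365 FPKM in NC libraries. The ranges of the full sum lay apart and those of the sum without ALDH1A1 overlapped. On the FPKM scales the median log2 fold change of all genes lay 0.09 to 0.11 higher than on the TMM scale, and the TMM-scaled CPM of ALDH1A1, most of this sum, overlapped between groups. As a share of all counts the family took 1.15%, 1.19% and 1.16% in si_STAU1 libraries, against 1.09%, 1.11% and 1.07% in NC libraries, a scale without TMM factors on which that median lay 0.08 higher.

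The order of the lower members depended on the length by which the counts were divided. By mean FPKM in NC libraries the order was ALDH1A1, ALDH3A1, ALDH3B1, ALDH1B1, ALDH9A1, ALDH2, ALDH3A2, ALDH18A1, ALDH7A1 and ALDH1A3. Within this order the ranges of ALDH2 and ALDH3A2 overlapped in NC libraries. In si_STAU1 libraries those of ALDH1B1 and ALDH9A1 overlapped. ALDH18A1 lay above ALDH3A2 in every si_STAU1 library and below it in every NC library. When CPM were divided by the length of each gene's principal transcript in GENCODE 29 instead, ALDH3A2 stood next after ALDH3A1 in NC libraries. It had 70.7 ± 1.505 CPM per kb in si_STAU1 libraries and 80.9 ± 1.98 in NC libraries (SD, n = 3 each). ALDH3B1 had 79.3 ± 1.65 CPM per kb in si_STAU1 libraries and 68.6 ± 2.02 in NC libraries, so on this scale the pair stood in opposite orders in the 2 groups. The length implied by the deposited FPKM was 15334 bases for ALDH3A2, against 3928 bases for its principal transcript, and 17912 against 4964 bases for ALDH7A1. For ALDH1B1 and ALDH2 the ratio of these lengths was 1.02.

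**Figure D2:**
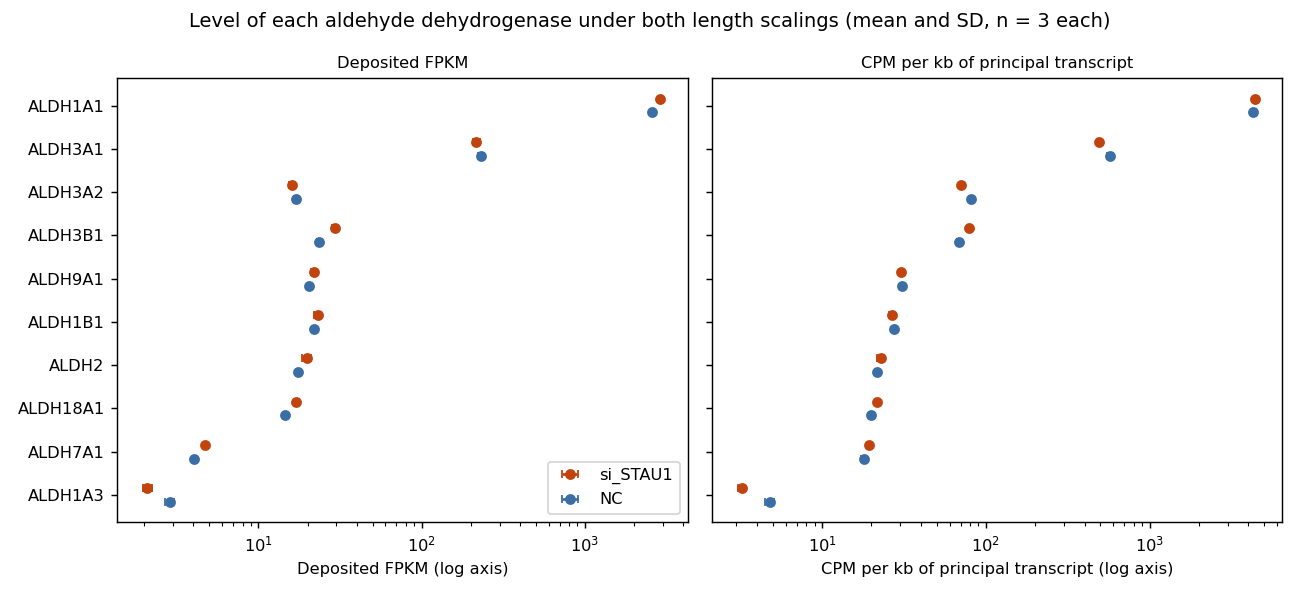
Mean level of each member (point) with its SD over 3 libraries (bar), si_STAU1 above NC in each row, as deposited FPKM on the left and as CPM per kb of the principal transcript on the right, both on log axes. ALDH1A1 and ALDH3A1 stand far above the rest on both scales, while ALDH3A2 moves from among the lower members on the FPKM scale to the place after ALDH3A1 in NC libraries on the other.

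The retinaldehyde dehydrogenases ALDH1A1 and ALDH1A3, cytosolic enzymes that make retinoic acid and that account for much of the aldehyde dehydrogenase activity measured in tumour cells, differed in level and in direction. ALDH1A1 (ENSG00000165092.13, chromosome 9, 72900662 to 73080442, minus strand, 13 exons in the principal transcript, by GENCODE 29 on GRCh38, as for all genes below) had 9120.4, 9459 and 9261 CPM in si_STAU1 libraries, against 9011, 9125 and 8767 CPM in NC libraries. The lowest si_STAU1 library lay below the highest NC library, so the groups overlapped on this scale, while they lay apart in FPKM. The log2 fold change was 0.05 (SE 0.02, adjusted p = 0.024), and the call was lost without si_STAU1 library 2 (0.04, adjusted p = 0.088) or without NC library 3 (0.03, adjusted p = 0.19). On the log2(FPKM + 1) scale the log2 fold change was 0.16, which was 0.07 relative to the median of all genes on that scale.

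ALDH1A3 (ENSG00000184254.17, chromosome 15, 100877714 to 100916626, plus strand, 13 exons) had 12.1, 13.4 and 12.5 CPM in si_STAU1 libraries, against 17.6, 18.8 and 19.8 CPM in NC libraries. Every si_STAU1 library lay below every NC library, and the counts behind these values were 377 to 453 in si_STAU1 libraries and 547 to 631 in NC libraries. ALDH1A3 fell by 0.57 on the log2 scale (SE 0.06, adjusted p = 4.3e-09), which was 1.48-fold lower and the largest change among the 10 members. Its size exceeded that of 90.8% of all tested genes. An antisense gene that overlaps it, AC015712.2, had 106, 122 and 111 counts in si_STAU1 libraries and 105, 93 and 110 counts in NC libraries, and reads of the 2 genes may not have been separated. The remaining enzyme of this group, ALDH1A2, had 3, 5 and 10 counts in si_STAU1 libraries and 4, 2 and 4 counts in NC libraries and was not tested.

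The start regions are shown because these 2 genes sit at opposite ends of the level order and were called in opposite directions. The call of ALDH1A1 was for a log2 fold change of only 0.05, with CPM that overlapped between groups. Each window runs from 250 bases before to 50 bases after a RefSeq start (GRCh38.p14), 5′ to 3′ on the gene's own strand, at chr9:72953004-72953303 on the minus strand for ALDH1A1 and chr15:100879581-100879880 on the plus strand for ALDH1A3. Capitals mark CCAAT or GCGTG on either strand.
ALDH1A1: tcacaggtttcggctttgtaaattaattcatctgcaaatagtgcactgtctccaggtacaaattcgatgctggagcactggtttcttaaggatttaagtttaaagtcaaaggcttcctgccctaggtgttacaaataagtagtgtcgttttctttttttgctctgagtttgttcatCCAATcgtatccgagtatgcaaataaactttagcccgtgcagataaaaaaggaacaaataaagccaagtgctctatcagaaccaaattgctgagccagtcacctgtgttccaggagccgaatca
ALDH1A3: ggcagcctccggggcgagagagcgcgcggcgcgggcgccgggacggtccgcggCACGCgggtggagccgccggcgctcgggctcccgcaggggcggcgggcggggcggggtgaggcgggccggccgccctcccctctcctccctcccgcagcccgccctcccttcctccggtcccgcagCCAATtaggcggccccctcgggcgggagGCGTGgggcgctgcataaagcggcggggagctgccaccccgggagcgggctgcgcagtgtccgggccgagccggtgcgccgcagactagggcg
The ALDH1A1 window held 40.3% G and C, lower than most of 35116 RefSeq windows (percentile 11.8, median 58.7%), and the ALDH1A3 window held 81.7% (percentile 98.6). Both held 1 CCAAT, at -74 in ALDH1A1 and at -71 in ALDH1A3 relative to the start, a motif present in 34.6% of all windows. The ALDH1A3 window held GCGTG, the core of the xenobiotic response element, on either strand at -197 and -43, and the ALDH1A1 window did not. GCGTG was present in 36.5% of all windows.

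Around these enzymes, 19 genes of retinoid metabolism, binding and receptors were tested, of which 5 were called higher and 6 lower, with a median log2 fold change of 0.05. The split was 7 higher and 2 lower under total-count scaling, 9 and 2 on both FPKM scales, and 2 and 5 with DESeq2. Beside the counts of this list and each list below stand the shares over all tested genes, 22.2% higher and 21.9% lower. Of all calls, higher genes made up 50.3%, but 69.5% under total-count scaling and 77.3% and 77.2% on the FPKM scales. RBP4, the retinol carrier of plasma, rose to 43.9, 41.8 and 43.8 CPM in si_STAU1 libraries, against 25.9, 25.6 and 25.4 CPM in NC libraries (log2 fold change 0.75, SE 0.04). STRA6, the cell-surface receptor that takes up retinol from RBP4, fell to 79.7, 79.6 and 81.8 CPM in si_STAU1 libraries, against 106, 108 and 109 CPM in NC libraries (-0.42, SE 0.03). CRABP2, which carries retinoic acid to its receptors, was also lower (-0.64, SE 0.15), at 1.91 to 2.62 CPM in si_STAU1 libraries and 3.04 to 3.74 CPM in NC libraries. The retinoic acid receptor genes RARA, RARB and RARG were called higher, at 0.14 (SE 0.05), 0.16 (SE 0.06) and 0.28 (SE 0.08). The CPM of RARB and RARG overlapped between groups, and the calls of RARA and RARB were lost with DESeq2. Of the listed enzymes that turn retinol and retinaldehyde into each other, RDH11, RDH13 and DHRS4 were called lower, at -0.10 (SE 0.03), -0.27 (SE 0.09) and -0.19 (SE 0.05). These calls were lost under total-count scaling and on both FPKM scales, where RDH11 was at 0.01, and those of RDH11 and RDH13 also without NC library 2 (-0.08 and -0.21). The 3 enzymes that follow were not called. RDH10, which makes retinaldehyde from retinol, had a log2 fold change of -0.04 (SE 0.03), DHRS3, which turns it back into retinol, -0.05 (SE 0.03), and CYP26B1, which breaks down retinoic acid, 0.05 (SE 0.06).

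**Figure D3:**
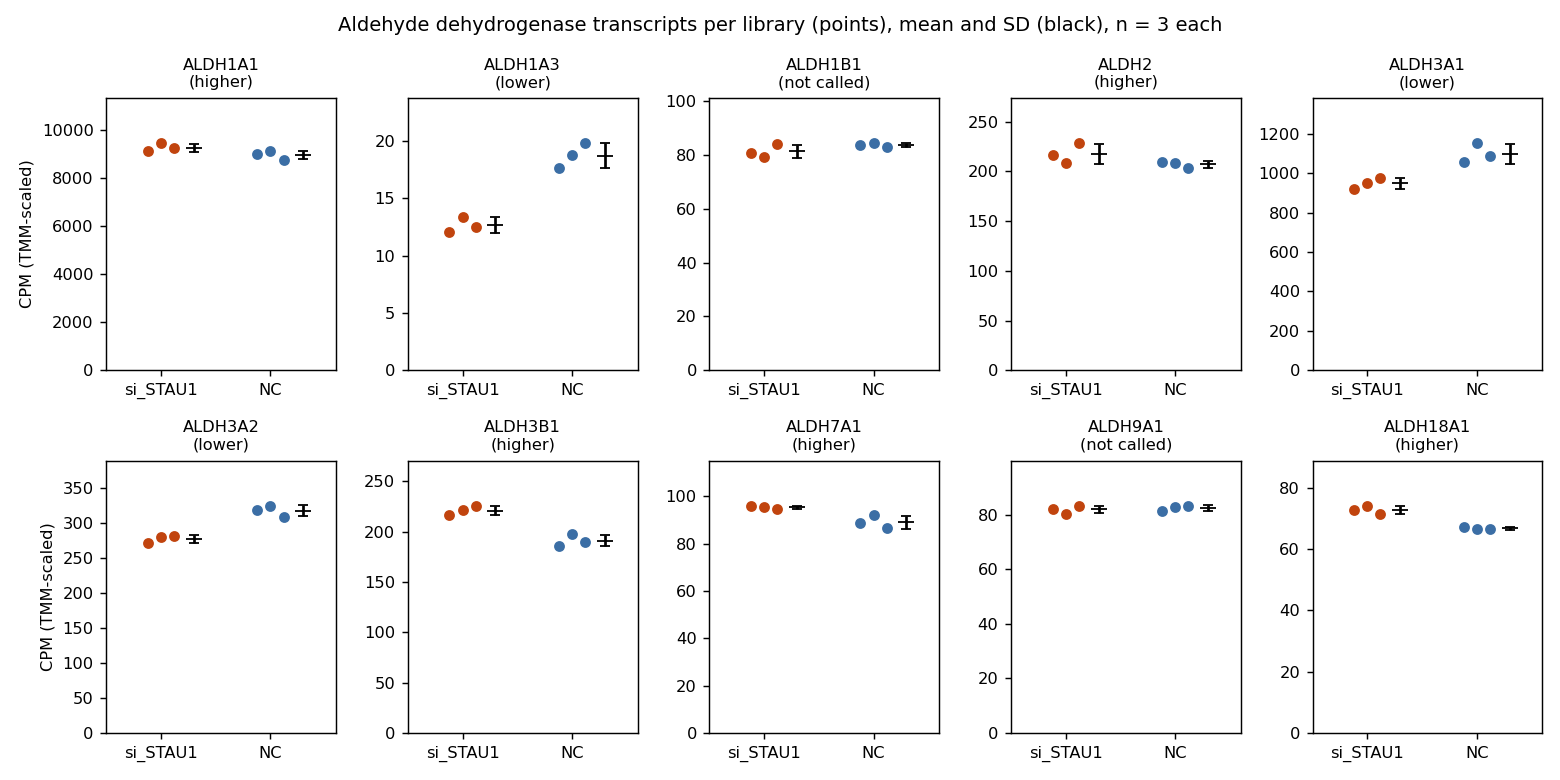
TMM-scaled CPM of each member in the 3 si_STAU1 libraries (left of each panel) and the 3 NC libraries (right), with the mean and SD in black and each vertical axis starting at 0. ALDH1A3 shows the widest gap between groups relative to its level, and the points of ALDH1A1, ALDH1B1, ALDH2 and ALDH9A1 overlap between groups.

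The mitochondrial enzymes ALDH2 and ALDH1B1 both oxidise acetaldehyde, and ALDH2 is the main enzyme of this step in ethanol breakdown. ALDH2 (ENSG00000111275.13, chromosome 12, 111766887 to 111817529, plus strand, 13 exons) had 216.6, 208.1 and 228.3 CPM in si_STAU1 libraries, against 210.0, 208.5 and 203.5 CPM in NC libraries. The second si_STAU1 library lay among the NC libraries, and the third was the highest of all 6. ALDH2 was called higher (log2 fold change 0.07, SE 0.03, adjusted p = 0.032), but not with DESeq2 (adjusted p = 0.074) nor when any 1 of si_STAU1 library 1, si_STAU1 library 3, NC library 2 or NC library 3 was left out, where the value was 0.03 without si_STAU1 library 3 (adjusted p = 0.35). ALDH2 shared 18.9% of the 31-base stretches of its transcript with other annotated genes, and a gene that overlaps it on the same strand, AC002996.1, had 1379, 1350 and 1508 counts in si_STAU1 libraries and 1145, 1167 and 1244 counts in NC libraries (log2 fold change 0.17, SE 0.04, called higher), so the level of ALDH2 is uncertain.

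ALDH1B1 (ENSG00000137124.8, chromosome 9, 38392664 to 38398661, plus strand, 2 exons) had 80.8, 79.3 and 84.1 CPM in si_STAU1 libraries, against 83.8, 84.3 and 82.9 CPM in NC libraries. The groups overlapped, and the gene was not called (log2 fold change -0.04, SE 0.03, 95% interval -0.10 to 0.02, adjusted p = 0.33). Its sign turned under total-count scaling (0.04) and on both FPKM scales (0.07), without a call. Of 6 tested genes of alcohol dehydrogenases and ethanol oxidation, 4 were called higher and 1 lower, with a median log2 fold change of 0.34, and the split was 5 and 0 on both FPKM scales. ADH6, a further alcohol dehydrogenase, had 4.41, 5.58 and 4.59 CPM in si_STAU1 libraries, against 2.77, 2.52 and 2.67 CPM in NC libraries (0.87, SE 0.13). ADH1C, a classical ethanol dehydrogenase, rose by a log2 of 0.48 (SE 0.09), and CAT, the catalase that can also oxidise ethanol, by 0.20 (SE 0.03). ADH5, the glutathione-dependent formaldehyde dehydrogenase, had 122, 125 and 120.5 CPM in si_STAU1 libraries and 122, 121 and 123 CPM in NC libraries and was not called.

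The ALDH3 enzymes act on medium- and long-chain aldehydes, many of them from lipids, and here 2 fell and 1 rose, with neither fall called on the FPKM scales. ALDH3A1 (ENSG00000108602.18, chromosome 17, 19737984 to 19748943, minus strand, 10 exons), a cytosolic enzyme of the cornea and of many tumour lines that clears lipid peroxidation products, had 922, 949.9 and 977 CPM in si_STAU1 libraries, against 1055, 1152 and 1088 CPM in NC libraries. All si_STAU1 libraries lay below all NC libraries, and the fall was 0.21 on the log2 scale (SE 0.03, adjusted p = 0.00020). Its antisense neighbour AC005722.3, listed as RP11-311F12.2, had 277, 246 and 157 counts in si_STAU1 libraries and 321, 349 and 323 counts in NC libraries and was not called (log2 fold change -0.63, SE 0.27, adjusted p = 0.14).

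ALDH3A2 (ENSG00000072210.19, chromosome 17, 19648136 to 19677598, plus strand, 10 exons) encodes the fatty aldehyde dehydrogenase of the endoplasmic reticulum, which is lost in Sjögren-Larsson syndrome. It had 271, 280.1 and 282 CPM in si_STAU1 libraries, against 319.5, 325 and 309 CPM in NC libraries. The groups did not overlap, and ALDH3A2 fell by 0.19 on the log2 scale (SE 0.02, adjusted p = 1.5e-08). On the log2(FPKM + 1) scale the values were -0.10 for ALDH3A1 (adjusted p = 0.099) and -0.08 for ALDH3A2 (adjusted p = 0.11), where the median of all genes lay 0.09 higher than on the count scale. Relative to that median the values were -0.19 and -0.17.

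ALDH3B1 (ENSG00000006534.16, chromosome 11, 68008578 to 68029282, plus strand, 10 exons), a membrane-bound enzyme that oxidises medium- and long-chain aldehydes, went the other way. It had 216, 221 and 225 CPM in si_STAU1 libraries, against 186, 197 and 190.0 CPM in NC libraries. The groups did not overlap, and ALDH3B1 rose by a log2 of 0.21 (SE 0.03, adjusted p = 1.3e-08), about as far as ALDH3A1 fell. It shared 152 of the 2756 31-base stretches of its transcript with its near copy ALDH3B2, which had 1 count over all 6 libraries.

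For the lipid-aldehyde enzymes ALDH3A2 and ALDH3B1, which moved in opposite directions, windows around RefSeq starts are shown at chr17:19648501-19648800 (plus strand) for ALDH3A2 and chr11:68008297-68008596 (plus strand) for ALDH3B1. They are 1 of 2 windows listed for each gene, printed as above, with capitals at the E-box CACGTG, at the CCAAT box or at the GCGTG core on either strand.
ALDH3A2: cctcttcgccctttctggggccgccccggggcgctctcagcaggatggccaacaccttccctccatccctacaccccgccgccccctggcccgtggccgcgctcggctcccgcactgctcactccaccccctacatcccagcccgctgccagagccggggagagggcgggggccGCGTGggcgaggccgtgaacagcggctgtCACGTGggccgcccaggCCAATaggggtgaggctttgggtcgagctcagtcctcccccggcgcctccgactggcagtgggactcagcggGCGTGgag
ALDH3B1: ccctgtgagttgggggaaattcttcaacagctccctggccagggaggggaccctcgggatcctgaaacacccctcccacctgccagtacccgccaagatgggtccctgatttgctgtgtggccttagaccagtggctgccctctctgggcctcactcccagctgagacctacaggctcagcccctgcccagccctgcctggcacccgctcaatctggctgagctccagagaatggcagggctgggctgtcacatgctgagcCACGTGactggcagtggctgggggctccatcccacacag
Both windows held CACGTG, at -47 in ALDH3A2 and at +12 in ALDH3B1. The other listed window of each gene, not printed, held neither CACGTG nor any other motif searched here. Over the 10 windows of the 8 members that matched the table, 3 held CACGTG, the third being that of ALDH18A1 at -136, against 7.26% of all windows. The antioxidant response element core TGACNNNGC, searched on both strands, was in none of the 10 windows and in 13.3% of all windows, and TATAAA was in none and in 11.5%. CCAAT was in 5 of the 10. ALDH2 and ALDH3A1 had no window, so none of these motifs was searched for them. A match is only a string of letters, and a window without one says nothing about a factor.

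Of 14 tested enzymes of fatty aldehyde, sphingolipid and plasmalogen metabolism, 1 was called higher and 3 lower, with a median log2 fold change of -0.04, and the split was 2 and 3 under total-count scaling and 2 and 1 on both FPKM scales. CYP4F11, which hydroxylates fatty acids, had 28.4, 30.5 and 29.9 CPM in si_STAU1 libraries, against 40.1, 44.1 and 43.3 CPM in NC libraries (-0.52, SE 0.04). AGPS, which makes the ether bond of plasmalogens, was lower by 0.27 (log2 fold change -0.27, SE 0.04), and SGPP1, a sphingosine phosphate phosphatase, by 0.21 (log2 fold change -0.21, SE 0.04). Neither of these calls held on the FPKM scales. SGPL1, the sphingosine phosphate lyase whose product hexadecenal is oxidised by ALDH3A2, had 64.2, 65.998 and 65.03 CPM in si_STAU1 libraries and 61.2, 62.1 and 61.9 CPM in NC libraries and was not called (0.08, SE 0.03, adjusted p = 0.061).

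Of the 3 members of amino acid and carnitine metabolism, ALDH7A1 and ALDH18A1 rose and ALDH9A1 was not called. ALDH7A1, or antiquitin (ENSG00000164904.18, chromosome 5, 126531200 to 126595418, minus strand, 18 exons), oxidises the semialdehyde of lysine breakdown, and its loss causes pyridoxine-dependent epilepsy. It had 95.9, 95.3 and 94.7 CPM in si_STAU1 libraries, against 88.6, 92.0 and 86.6 CPM in NC libraries, with no overlap (log2 fold change 0.10, SE 0.03, adjusted p = 0.0071). Without NC library 3 the value was 0.08 and the call was lost (adjusted p = 0.057). A pseudogene copy, ALDH7A1P1, shares 636 of its 4934 31-base stretches, so its level is uncertain. In lysine breakdown 7 genes were tested, of which 1 was called higher and 3 lower, with a median of -0.10, and the split was 2 and 2 under total-count scaling, 2 and 1 on both FPKM scales and 0 and 3 with DESeq2. GCDH, the glutaryl-CoA dehydrogenase, was lower by 0.35 (log2 fold change -0.35, SE 0.08). DLST and DLD, which are subunits of the 2-oxoacid dehydrogenases, had log2 fold changes of -0.15 and -0.12 (SE 0.03 each), calls that were lost on the FPKM scales. AADAT, which acts on the product of ALDH7A1, was not called (-0.10, SE 0.07), and AASS, which acts before it, had too few counts to be tested.

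ALDH18A1 (ENSG00000059573.9, chromosome 10, 95605929 to 95656706, minus strand, 18 exons) encodes pyrroline-5-carboxylate synthase, which makes the shared precursor of proline and ornithine from glutamate. It had 72.8, 74.0 and 71.4 CPM in si_STAU1 libraries, against 67.3, 66.5 and 66.5 CPM in NC libraries. The groups lay apart, and ALDH18A1 rose by a log2 of 0.12 (SE 0.03, adjusted p = 0.0017). PYCR1, a mitochondrial reductase that completes proline from the product of ALDH18A1, went the other way. It had 32.7, 33.2 and 33.1 CPM in si_STAU1 libraries, against 54.4, 51.7 and 52.9 CPM in NC libraries (-0.68, SE 0.04). The cytosolic reductase PYCR3 was lower by 0.36 (log2 fold change -0.36, SE 0.06).

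The other proline, glutamate and ornithine enzymes moved both ways. Of 12 tested, 4 were called higher and 4 lower, with a median log2 fold change of 0.06, and the split was 5 and 4 under total-count scaling and 5 and 3 on both FPKM scales. ASL, the argininosuccinate lyase of arginine synthesis, had 44.6, 42.5 and 44.5 CPM in si_STAU1 libraries, against 28.6, 31.4 and 28.3 CPM in NC libraries (0.58, SE 0.05). OAT, the aminotransferase that links ornithine to the product of ALDH18A1, rose by a log2 of 0.11 (SE 0.03), a call lost without any 1 of si_STAU1 library 2, NC library 2 or NC library 3, where it was 0.08, 0.08 and 0.10.

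ALDH9A1 (ENSG00000143149.12, chromosome 1, 165662216 to 165698863, minus strand, 11 exons) oxidises trimethylaminobutyraldehyde in carnitine synthesis and aminoaldehydes from polyamines. It had 82.2, 80.4 and 83.2 CPM in si_STAU1 libraries, against 81.2, 82.9 and 83.2 CPM in NC libraries. The groups overlapped, and the log2 fold change was -0.01 (SE 0.03, 95% interval -0.07 to 0.05, adjusted p = 0.84). It was called higher on the FPKM scales, at 0.10 (adjusted p = 0.046) with a pseudocount of 1 and at 0.10 (adjusted p = 0.045) with a pseudocount of 0.1. Relative to the median of all genes on those scales these values were 0.00 and -0.01. Of 15 tested genes of carnitine synthesis and polyamine metabolism, 3 were called higher and 6 lower, with a median of -0.02, and the split was 5 and 3 under total-count scaling and 6 and 2 on both FPKM scales. MAOA, a monoamine oxidase whose reaction yields aldehydes, had 57.8, 61.0 and 56.4 CPM in si_STAU1 libraries, against 41.4, 41.7 and 41.3 CPM in NC libraries (0.49, SE 0.04). SHMT1, the cytosolic serine hydroxymethyltransferase, was lower by 0.31 (log2 fold change -0.31, SE 0.03), and SMOX, the spermine oxidase, by 0.29 (log2 fold change -0.29, SE 0.03). TMLHE, which opens carnitine synthesis, was not called (0.10, SE 0.09).

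The family holds 9 further genes that the table listed, of which 7 were tested, 2 were called higher and 0 lower, with a median log2 fold change of -0.09. The count of lower genes was also 0 at an unadjusted p under 0.05 and with DESeq2 or limma. ALDH5A1, the succinate semialdehyde dehydrogenase of GABA breakdown, had 23.9, 26.2 and 23.6 CPM in si_STAU1 libraries, against 20.0, 19.4 and 19.9 CPM in NC libraries (0.31, SE 0.05, adjusted p = 1.2e-05). ALDH1L1, the cytosolic formyltetrahydrofolate dehydrogenase, had 45, 48 and 36 counts in si_STAU1 libraries, against 26, 19 and 30 counts in NC libraries (0.69, SE 0.24, adjusted p = 0.020). This call was lost with DESeq2 (adjusted p = 0.078), on both FPKM scales and without any 1 of si_STAU1 library 1, si_STAU1 library 2 or NC library 2, where it was 0.62, 0.58 and 0.54. ALDH1L2, its mitochondrial relative, had a log2 fold change of -0.10 (SE 0.10). ALDH4A1, which oxidises the product of ALDH18A1 back to glutamate, had -0.10 (SE 0.05), ALDH6A1, of valine breakdown, 0.15 (SE 0.07), ALDH16A1 -0.09 (SE 0.05) and ALDH8A1, of tryptophan breakdown, -0.09 (SE 0.36), and none of these 5 was called.

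Ratios of counts within a library do not depend on library scaling, and 6 ratios between members were computed after their values were seen, without a test. ALDH1A1 over ALDH1A3 was 756, 706 and 739 in si_STAU1 libraries, against 511, 486 and 443 in NC libraries. ALDH3B1 over ALDH3A2 was 0.797, 0.789 and 0.799 in si_STAU1 libraries, against 0.583, 0.608 and 0.614 in NC libraries. ALDH3B1 over ALDH3A1 was 0.234, 0.233 and 0.231 in si_STAU1 libraries, against 0.176, 0.171 and 0.175 in NC libraries. In each of these 3 ratios the groups did not overlap. Each joins a member called higher with a member called lower in the same counts, so the gaps are no separate evidence. ALDH1A1 over ALDH3A1 was 9.89, 9.96 and 9.48 in si_STAU1 libraries, against 8.54, 7.92 and 8.06 in NC libraries, and ALDH2 over ALDH1B1 was 2.68, 2.62 and 2.71 in si_STAU1 libraries, against 2.51, 2.47 and 2.45 in NC libraries. The exception was ALDH3A1 over ALDH3A2, at 3.40, 3.39 and 3.46 in si_STAU1 libraries and 3.30, 3.55 and 3.52 in NC libraries, where the groups overlapped.

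Of 18 tested enzymes that clear aldehydes by other chemistry, 9 were called lower and 2 higher, with a median log2 fold change of -0.17. Over all tested genes 21.9% were called lower and 22.2% higher. Total-count scaling gave 8 lower and 4 higher, and both FPKM scales gave 7 and 4. The 2 called higher were AOX1 (0.64, SE 0.08) and GSTA4 (0.13, SE 0.05), of which GSTA4 was not called with DESeq2. The largest change in this list was that of AKR1B1, called lower (-0.99, SE 0.06). It had 2019, 1847 and 2056 CPM in si_STAU1 libraries, against 4074, 3742 and 3969 CPM in NC libraries. AKR1C3, an aldo-keto reductase of steroids and lipid aldehydes, had 2949.9, 2853 and 2969.9 CPM in si_STAU1 libraries, against 3626, 3693 and 3606 CPM in NC libraries (-0.32, SE 0.02). AKR1C2, a near-identical relative that may share reads with it, was lower by 0.27 (log2 fold change -0.27, SE 0.02), and GLO1, the glyoxalase that removes methylglyoxal, by 0.30 (log2 fold change -0.30, SE 0.02). The NRF2 pathway is active in A549 cells and controls ALDH3A1 and other detoxifying genes in several cell types. Of its 18 tested genes, 11 were called lower and 4 higher (median -0.09), against 21.9% and 22.2% of all tested genes. This split was 6 lower and 5 higher under total-count scaling and 5 and 5 on the log2(FPKM + 1) scale. Over all genes, 2398 were called lower and 5455 higher under total-count scaling, and 1552 lower and 5276 higher on the log2(FPKM + 1) scale. HMOX1, the haem oxygenase, rose by a log2 of 0.50 (SE 0.03) and ME1, the malic enzyme, by 0.37 (SE 0.02).

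The aryl hydrocarbon receptor is known to induce ALDH3A1 along with CYP1 enzymes. Of 7 tested genes of its battery, 3 were called higher and 1 lower, with a median of 0.13, and the split was 4 and 0 under total-count scaling and on both FPKM scales. CYP1B1, a monooxygenase that the receptor induces, had 60.2, 65.8 and 64.2 CPM in si_STAU1 libraries, against 34.0, 36.1 and 37.0 CPM in NC libraries (0.83, SE 0.04). AHR, the receptor itself, had 65.0, 63.7 and 59.7 CPM in si_STAU1 libraries, against 45.8, 42.8 and 45.8 CPM in NC libraries (0.49, SE 0.04). UGT1A6, a glucuronosyltransferase that shares exons with the other UGT1A genes, had 3.90, 4.20 and 3.74 CPM in si_STAU1 libraries, against 1.84, 1.90 and 2.20 CPM in NC libraries (0.99, SE 0.14). NQO1, a quinone reductase in both this list and the NRF2 list, had -0.11 (SE 0.02), a call lost under total-count scaling and on the FPKM scales. The other tested genes, ARNT (0.13, SE 0.05), NFE2L2 (-0.03, SE 0.03) and TIPARP (-0.03, SE 0.06), were not called. AHRR, CYP1A1 and CYP1A2 were not among the tested genes. ALDH3A1 was lower while CYP1B1, AHR and UGT1A6 were higher, and a link between them was not tested.

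**Figure D4:**
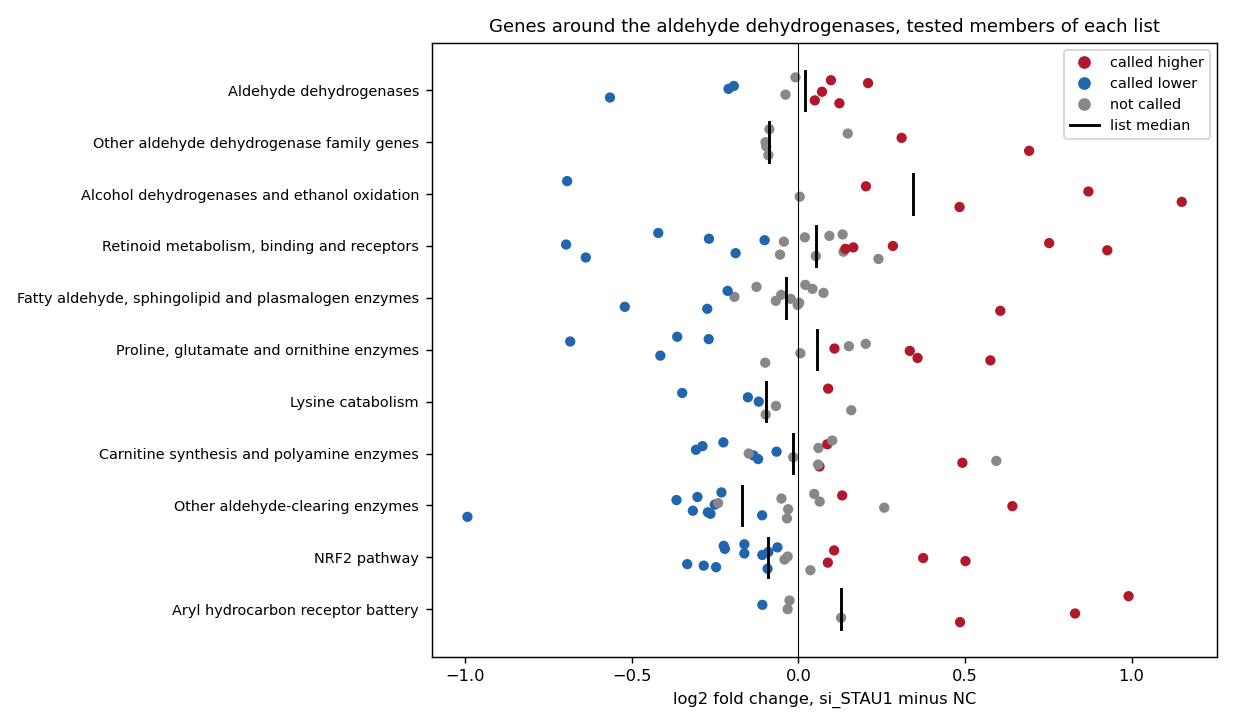
Log2 fold changes (si_STAU1 minus NC, horizontal axis) of the tested genes of each list, 1 point per gene, coloured by call, with the list median as a black bar. The aldehyde dehydrogenases in the top row lie close to 0 on either side, with ALDH1A3 apart at -0.57. The NRF2 row holds 11 lower and 4 higher calls here and 6 and 5 under total-count scaling. Higher genes made up 50.3% of all calls here and 69.5% under total-count scaling.

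Over the 6 libraries, the 3 genes whose log2 CPM followed ALDH1A1 most closely among 10106 genes whose log2 CPM averaged 3 or more were FGD5-AS1, REXO1 and HSD17B14, with Pearson r of 0.994, 0.993 and 0.987. For ALDH1A3 they were EXOSC9, NCAPH2 and PPP1R15B, with r of 0.998, 0.998 and 0.997. For ALDH1A1 130 genes had an r above 0.9, and for ALDH1A3 1956. With 3 libraries in each group the difference between groups sets much of such an r, and libraries and scaling factors are shared by all genes, so these values are a description.

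The calls of ALDH1A3, ALDH3B1 and ALDH18A1 held in all 17 alternatives of normalization, filter, test and left-out library. Their log2 fold changes ranged over these alternatives from -0.61 to -0.32 for ALDH1A3, 0.19 to 0.32 for ALDH3B1 and 0.11 to 0.23 for ALDH18A1. The calls of ALDH3A1 and ALDH3A2 were lost on the FPKM scales and held otherwise. The calls of ALDH1A1, ALDH2 and ALDH7A1, with log2 fold changes of 0.05 to 0.10, were lost when certain single libraries were left out, all 3 of them without NC library 3. On the other side of 0, ALDH1B1 and ALDH9A1 turned positive under total-count scaling and on the FPKM scales, where the median of all genes also moved up.

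**Figure D5:**
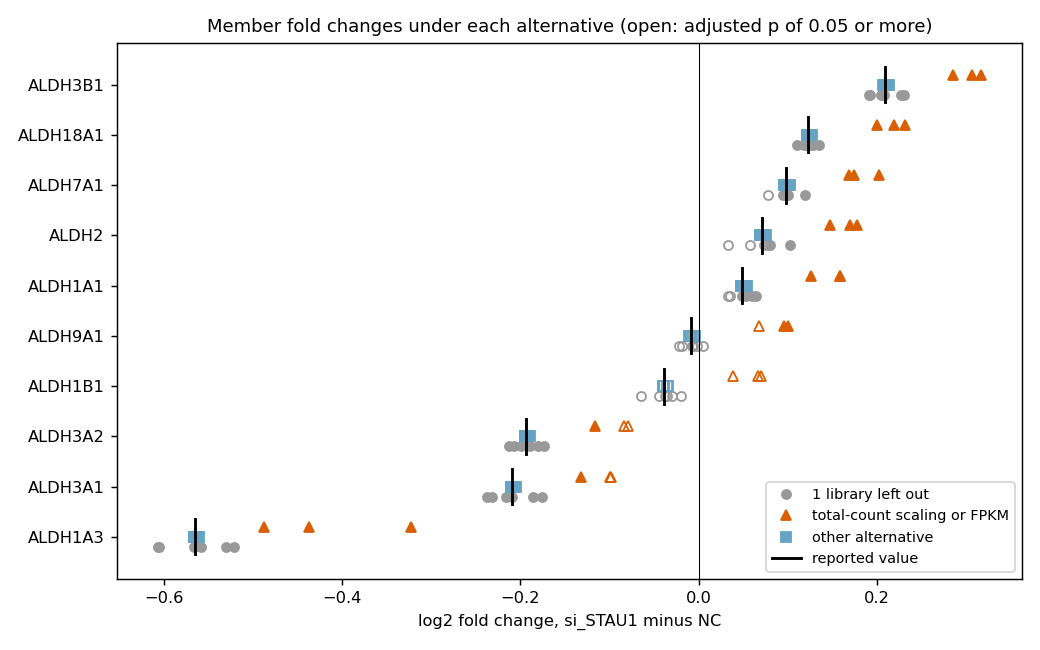
Log2 fold change of each member (horizontal axis, si_STAU1 minus NC) under each of 17 alternatives, with the reported value as a black line; filled symbols mark an adjusted p under 0.05 and open symbols one of 0.05 or more. Total-count scaling and FPKM (triangles) move every member to the right and carry ALDH1B1 and ALDH9A1 across 0, while leaving out 1 library (circles) opens symbols for ALDH1A1, ALDH2 and ALDH7A1.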

How the data were processed

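RNA-seq of 6 A549 libraries was analysed. The authors deposited whole-number read counts per gene, and the authors also deposited FPKM values. The submitters' processing notes name HISAT2, DESeq2 and GRCh38, without role or version. How reads were counted, with which annotation and strand setting, is not stated in those sources. Genes were therefore not separated here from overlapping or antisense partners. Total counts were 30354219, 31033209 and 35431441 in si_STAU1 libraries and 31791407, 31458569 and 32832268 in NC libraries. Library columns were matched by name to the sample titles. No replicate pair differed as little as sampling noise (chi-square per degree of freedom 1.78 to 2.88).

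Counts were filtered with filterByExpr (minimum count 10), scaled with TMM and tested with edgeR 4.0.16 (R 4.3.3), quasi-likelihood with robust dispersion, 2 groups and no covariate, Benjamini-Hochberg over 17089 genes, called at an adjusted p under 0.05. All p-values of single genes in the text are adjusted p-values from this test unless another tool or a scale is named. CPM are TMM-scaled, except the sums of marker lists, which are CPM by the library total alone. A standard error is the absolute log2 fold change divided by the root of F, and intervals are at 95%. FPKM were tested with limma 3.58.1 on log2(FPKM + 1) and log2(FPKM + 0.1), which understate changes of low genes. The scripts were tested on simulated counts. Alternatives were scaling by total count, by upper quartile or by RLE, testing without a filter or with 1 CPM in 3 libraries, DESeq2 1.42.0, limma-voom, both FPKM scales, the replicate number as a block and each library left out, and, chosen after seeing the data, edgeR's legacy quasi-likelihood test.

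Gene coordinates, principal transcripts and shared 31-base stretches came from GENCODE 29, and start windows from RefSeq (GRCh38.p14), with 10 windows for 8 members. No window matched ALDH2 or ALDH3A1. A library's FPKM divisor differed from its count total: relative to NC library 1 it was 1.05 in si_STAU1 library 3, where the total was 1.11. The members and lists were chosen with earlier results of these data known. The named genes were STAU1, the family, up to 3 called genes of the smallest adjusted p per list, and genes acting directly before or after a member. They also included the 3 genes most like the member of highest FPKM and like the called member of largest change. RARA, RARB, RARG, AOX1, GSTA4, AKR1B1, ARNT, NFE2L2 and TIPARP were named after their values were seen. A few genes that the rule names are counted in their lists and not reported singly here.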

Additional observations from a re-analysis of the deposited data

How the results depend on the processing

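The STAU1 value kept its direction and call in every alternative, and it was -2.99 to -2.93 with 1 library left out. Members called higher numbered 5, and 2 to 5 with 1 library left out, the lowest without NC replicate 3. Members called lower numbered 3, and 3 in each fit with 1 library left out, but 1 on both FPKM scales, where ALDH3A1 (-0.10 on each) and ALDH3A2 (-0.08 on each) lost their calls. Genes called lower numbered 3741 over all genes, 3341 to 3630 with 1 library left out, 2398 with total-count scaling, 1552 on log2(FPKM + 1) and 1554 on log2(FPKM + 0.1), and genes called higher numbered 3790, and 3318 to 3571 with 1 library left out. Higher genes made up 50.3% of the calls, 69.5% with total-count scaling, 77.3% on log2(FPKM + 1) and 77.2% on log2(FPKM + 0.1), where the median log2 fold change of all genes lay higher by 0.08, 0.09 and 0.11. Values against their reported sign were those of ALDH1B1 (0.038, 0.067 and 0.070) and ALDH9A1 (0.068, 0.096 and 0.10) under these 3 settings. ALDH9A1 was -0.022 to 0.0046 with 1 library left out, above 0 only without si_STAU1 replicate 2. Relative to the median of all genes in the same setting ALDH1B1 was -0.04, -0.03 and -0.04. The cause was not tested.

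The deviations of same-numbered libraries from their group means correlated at 0.050, 0.0015 and 0.16. For libraries of different numbers the values ran from -0.13 to 0.086. So few values cannot decide whether the replicate numbers pair the libraries. With the replicate number as a block, 5 members were called higher and 3 lower, over all genes 3811 and 3831, STAU1 was at -2.97, and no member's call changed. The adjusted p of ALDH3A1 was 4.4e-11 in the edgeR test with the block, against 0.00020 without it. Depth limits ALDH1A2 and ALDH3B2, which had at most 10 counts in a library, and ALDH8A1, whose 95% interval ran from -0.82 to 0.65. The deposited FPKM of ALDH3A2 and ALDH7A1 rest on lengths above 3 times their principal transcripts, and between the FPKM and CPM per kb scales ALDH3A2 moved from place 7 to 3 of the members, while ALDH7A1 was at 9 on both.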
